A study of Mus musculus with 12 samples.

Results

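The SR (serine/arginine-rich) protein genes and the hnRNP (heterogeneous nuclear ribonucleoprotein) genes were examined in sorted mouse thymic epithelial cells (TEC). Members were taken by symbol, as every gene named Srsf or Hnrnp followed by its number or letters, with the pseudogenes left out. This gave 31 genes of 34547 with a measured transcript, made up of 11 SR genes and 20 hnRNP genes. Cortical TEC (cTEC, sorted as Epcam+CD45-Ly51+UEA1-) and medullary TEC (mTEC, sorted as Epcam+CD45-Ly51-UEA1+) came from wild-type (WT) C57BL/6 mice and from Aβ0/0 mice (AB0 in the sample names), whose disrupted H2-Ab1 gene leaves them without MHC class II. The 4 groups held 3 libraries each, and each library was 1 poly-A RNA pool of 5 to 10 mice aged 4 to 6 weeks. By the study's record of its sorts, cTEC and mTEC of the same genotype and replicate number were read as sharing mice. The main tests between subsets did not use this pairing, and fits with the replicate number as a block were run as alternatives. Under each number fewer cells of each subset were sorted from Aβ0/0 than from WT mice. The mice carried no other allele and received no treatment that the labels name, and the loss of MHC class II was not limited to TEC. The spread between libraries is therefore a spread between pools, and a value says nothing about single animals.

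SR proteins bind exonic enhancer sequences through RNA recognition motifs and help the spliceosome choose exons, and most hnRNP proteins coat nascent transcripts and often repress the same choices. Both families hold down their own levels by splicing their transcripts into forms with a premature stop codon, which nonsense-mediated decay (NMD) destroys. The exon that brings in the stop is called a poison exon. Medullary TEC are known for transcribing and splicing the genes of many other tissues, which displays their products to developing T cells.

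Poison exons could be read directly from the annotated transcripts of the 2 families. Of 31 member transcripts annotated as NMD targets in GENCODE M21 (build GRCm38), 9 ended their reading frame in an exon found in no coding transcript of the gene. The stop lay in a cassette exon that a coding transcript skips in 7 of the 31, of which 6 were among those 9 and the other was Srsf6-201. The 5 such cassettes whose transcript averaged over 5 TPM (the level corrected for transcript length and library size) in these cells are shown, because they show where a premature stop enters a member's transcript. Each line gives the coding part of the exon, 5′ to 3′ on the gene's strand, up to and including its stop codon, which is in capitals.
Srsf3-201, exon 4 of 7, chr17:29039454-29039487, plus strand: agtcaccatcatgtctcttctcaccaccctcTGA
Srsf6-201, exon 3 of 7, chr2:162932815-162932966, plus strand: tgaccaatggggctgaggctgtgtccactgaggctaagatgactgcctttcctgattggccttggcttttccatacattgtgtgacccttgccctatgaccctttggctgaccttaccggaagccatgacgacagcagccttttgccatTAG
Hnrnpl-213, exon 6 of 13, chr7:28817335-28817393, plus strand: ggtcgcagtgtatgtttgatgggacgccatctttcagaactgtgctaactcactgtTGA
Srsf11-210, exon 3 of 5, chr3:158024209-158024231, minus strand: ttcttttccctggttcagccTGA
Hnrnpll-203, exon 7 of 14, chr17:80044976-80045022, minus strand: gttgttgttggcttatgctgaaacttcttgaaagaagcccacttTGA
Counted to the last base of the stop codon, the printed stretch was 23 bases in the Srsf11 cassette and 152 bases in the Srsf6 cassette, and 4 of the 5 stops were TGA. The whole exons were 456 bases long in Srsf3, 268 in Srsf6, 109 in Srsf11, 83 in Hnrnpll and 70 in Hnrnpl. The Srsf6 exon also overlapped a coding exon of a second, rarely used Srsf6 transcript, Srsf6-202.

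**Figure D1:**
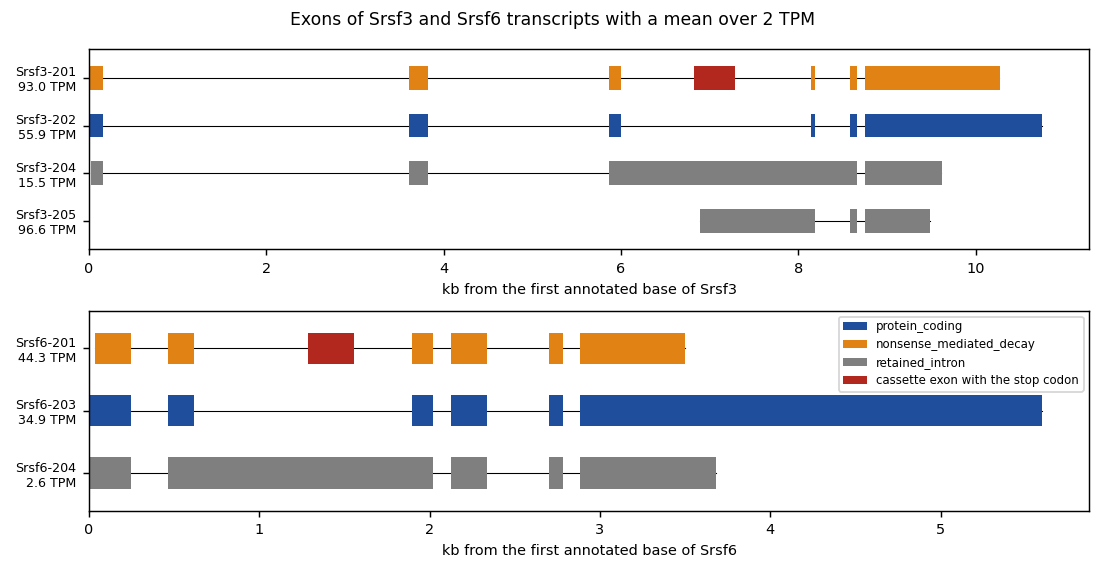
Exons (boxes) and introns (lines) of the Srsf3 and Srsf6 transcripts with a mean over 2 TPM, to scale in kb from the gene's first annotated base, with coding transcripts in blue, NMD transcripts in orange, retained-intron transcripts in grey and the cassette exon with the stop codon in red. The red exon is in Srsf3-201 (93.0 TPM) and Srsf6-201 (44.3 TPM) and is skipped in Srsf3-202 (55.9 TPM) and Srsf6-203 (34.9 TPM).

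Libraries held 21710319 to 36139815 estimated counts, and mitochondrial transcripts took 3.32% to 4.83% of them in mTEC and 1.17% to 3.45% in cTEC. The highest cTEC values were in WT cTEC replicate 3 (3.45%, against 1.29% and 1.5% in replicates 1 and 2) and Aβ0/0 cTEC replicate 2 (2.67%). H2-Ab1, the gene disrupted in Aβ0/0 mice, stood at 6626 to 11070 CPM (counts scaled to library size) in the 6 WT libraries and at 1952 to 3767 CPM in the 6 Aβ0/0 libraries, so it was lower in each Aβ0/0 library but not absent, and the estimated counts do not show which exons these reads cover. The 9 listed cTEC markers (Psmb11, Prss16 and others) summed to 10510 to 25960 CPM in cTEC and 1670 to 3209 CPM in mTEC, and the 11 mTEC markers (Aire, Cd80 and others) to 1566 to 2128 CPM in cTEC and 4817 to 5975 CPM in mTEC, as the sort labels say. Markers of other cells moved with the groups. The 6 fibroblast markers summed to 2336 to 2937 CPM in cTEC and 192 to 397 CPM in mTEC. Most of that sum was Dcn (2205 to 2830 CPM in cTEC and 118 to 371 CPM in mTEC). Col1a2 was also higher in each cTEC library, while Lum, Col1a1, Pdgfra and Pdgfrb overlapped between the subsets. The 11 thymocyte markers summed to 280 to 587 CPM in WT cTEC, 654 to 882 CPM in Aβ0/0 cTEC and 42.0 to 185 CPM in mTEC. The 5 endothelial markers summed to 41.6 to 86.7 CPM in WT cTEC and 17.8 to 27.8 CPM in Aβ0/0 cTEC. The 6 granulocyte markers summed to 514 to 664 CPM in WT mTEC and 76.2 to 311 CPM in Aβ0/0 mTEC. The 10 markers of dendritic cells, macrophages and B cells summed to 649 to 690 CPM in WT mTEC and to 115, 143 and 691 CPM in Aβ0/0 mTEC. No marker of these lists was at 0 in all 12 libraries, and the part of other cells in the results that follow was not tested. In bulk samples fewer cells of a type and less RNA per cell cannot be told apart.

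For transcripts of the members a pair of libraries stood apart. Of 157 member transcripts with a mean over 2 TPM, 25 were at 0 in WT cTEC replicate 3 and 24 in Aβ0/0 mTEC replicate 2, against 0 to 9 in each of the other 10 libraries. The same libraries had the most zeros over all 28359 such transcripts (15.8% and 15.6%), but did not stand apart there. Aβ0/0 mTEC replicate 3 had 12.2% at 0, Aβ0/0 cTEC replicate 3 11.8% and Aβ0/0 cTEC replicate 2 10.8%. In mTEC these zeros moved with genotype, at 1.72%, 1.97% and 1.86% in WT replicates 1, 2 and 3. The lowest Aβ0/0 mTEC value was 3.97%, in replicate 1. The part of these zeros in the comparisons was not tested. WT cTEC replicate 3 was the lowest of the 12 libraries for 11 members and the highest for 3, which were Hnrnpa0, Hnrnpa3 and Hnrnpul2 (named after their values were seen).

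All 31 genes were measured in each group, at levels more even than those of most genes. Hnrnpk, an RNA- and DNA-binding protein with KH domains, was the most abundant, at a mean of 659.8 TPM over the 12 libraries. Hnrnpa2b1, which binds UAG-containing RNA, followed with 599.5 TPM. The 3 most abundant SR genes were Srsf5 (358.0 TPM), Srsf2, also called SC35 (279.3 TPM), and Srsf3, the smallest SR protein (261.3 TPM). At the other end stood Hnrnpul2, a SAF-A relative (6.14 TPM), Srsf12, a repressive SR protein (10.9 TPM), Hnrnpa0 (24.0 TPM), Hnrnpll, known for regulating CD45 splicing in lymphocytes (26.4 TPM), and Hnrnpul1 (27.4 TPM). Srsf5, Srsf2 and Srsf3 made up 57.4% of all SR TPM, and Hnrnpk and Hnrnpa2b1 made up 40.6% of all hnRNP TPM.

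Neighbours near the top of this order were not clearly separated. Hnrnpk stood at 654 ± 368 TPM (SD, n = 3) in WT cTEC (264 TPM in replicate 3), 788 ± 180 in Aβ0/0 cTEC, 589 ± 58.3 in WT mTEC and 608 ± 137 in Aβ0/0 mTEC. Hnrnpa2b1 stood at 616 ± 105, 728 ± 99.1, 511 ± 20.1 and 543 ± 51.6 TPM in the same groups, a distance from Hnrnpk smaller than the Hnrnpk SD in each group but WT mTEC. Srsf2 (262 ± 21, 319 ± 14.9, 233 ± 14.0 and 303 ± 53.1 TPM) and Srsf3 (239 ± 71.2, 294 ± 21.4, 252 ± 30.8 and 260 ± 44.2 TPM) had libraries that overlapped in each group. Among the low members, Srsf12 had lower means in mTEC than in cTEC. It stood at 17.8 ± 10.8 and 17.9 ± 4.19 TPM in WT and Aβ0/0 cTEC and at 3.81 ± 0.587 and 4.02 ± 3.66 TPM in WT and Aβ0/0 mTEC. Its libraries overlapped across genotypes in TPM, with 7.14 TPM in Aβ0/0 mTEC replicate 1 and 5.91 TPM in WT cTEC replicate 3.

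The ratio of the highest to the lowest group mean was under 1.5 for 22 of the 31 members (71.0%), and for 24.3% of the 15008 genes with a mean of at least 50 counts. Its median was 1.32 in the members and 2.02 in those genes. These ratios were taken on the CPM scale, where Srsf12 had the widest (5.91) and was the only member to pass 2. Libraries of 1 group were also close. The median coefficient of variation of a member was 21.1% in WT cTEC, 18.3% in Aβ0/0 cTEC, 9.97% in WT mTEC and 23.2% in Aβ0/0 mTEC, where that of all those genes was 36.1%, 36.4%, 17.2% and 41.6%. Highly expressed genes vary less between libraries, and these medians were not matched for level. The summed SR level was 1537 ± 309 TPM in WT cTEC (1181 TPM in replicate 3), 1910 ± 276 in Aβ0/0 cTEC, 1271 ± 37.2 in WT mTEC and 1544 ± 117 in Aβ0/0 mTEC. The summed hnRNP level was 3188 ± 882, 3643 ± 504, 2721 ± 168 and 2849 ± 225 TPM in that order, with 2204 TPM in WT cTEC replicate 3.

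**Figure D2:**
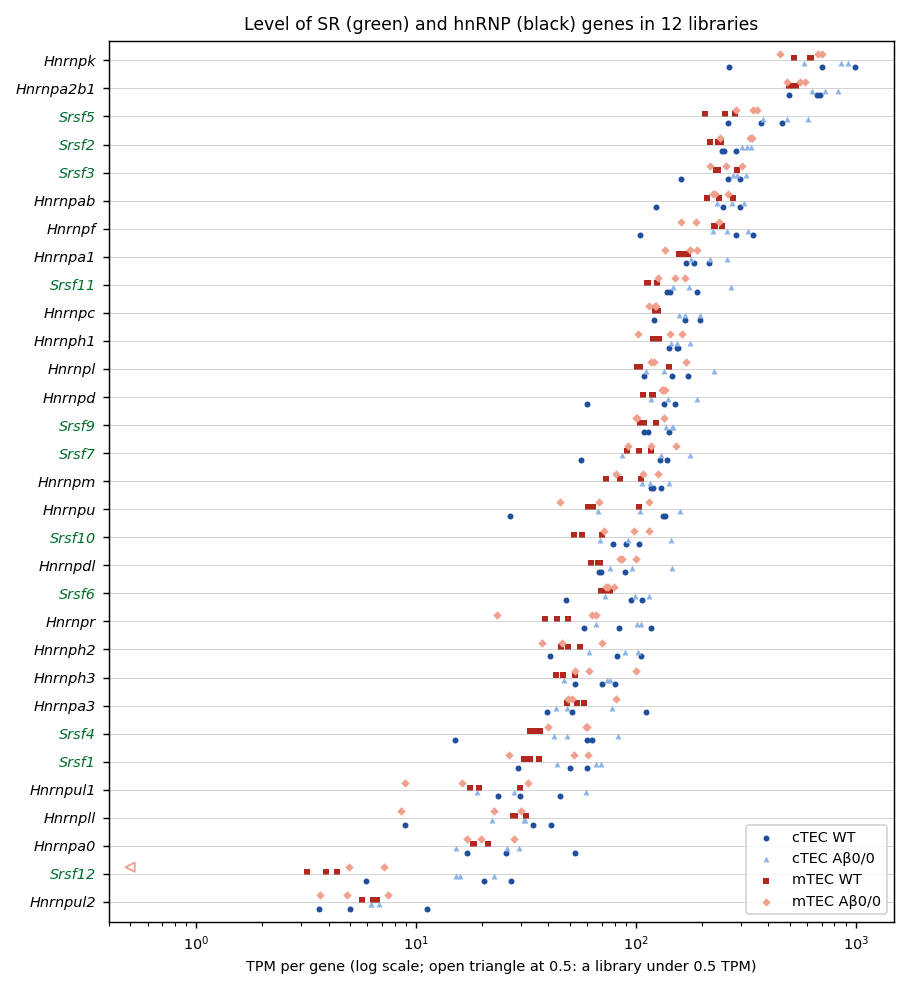
Level of each of the 31 genes in each of the 12 libraries, in TPM on a log axis, with genes ordered by their mean, SR names in green, hnRNP names in black and points coloured and shaped by group. Hnrnpk and Hnrnpa2b1 lie at the top with means of 659.8 and 599.5 TPM, and Srsf12 has means of 17.8 and 17.9 TPM in cTEC and of 3.81 and 4.02 TPM in mTEC, with 1 mTEC point above the lowest cTEC point.

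The first comparison asked whether losing MHC class II went with different levels of these genes in mTEC. The 4 lowest estimates were those of the SR genes Srsf4, Srsf5, Srsf10 and Srsf11. None of the 31 genes passed the threshold (adjusted p under 0.05, edgeR quasi-likelihood test with Benjamini-Hochberg adjustment over 18636 genes), where 5.66% of all genes tested did, 0.338% as lower in WT. That background moved with single libraries. Over all genes 1054 passed with the 6 libraries and 0 without any 1 WT mTEC library, and 2377, 44 and 13 passed without Aβ0/0 mTEC replicate 1, 2 and 3. With the replicate number as a block (a pairing read from the study's record of its sorts) 0 of all genes passed. There 0 members were past the threshold and 5 at the unadjusted one, against 15.7% of all genes. At an unadjusted p under 0.05 stood 5 members, all lower in WT than in Aβ0/0 mTEC, against 15.3% of all genes tested in either direction and 5.12% lower in WT. Retained-intron transcripts of all genes moved with this comparison, at 5.40%, 5.17% and 5.41% of TPM in WT mTEC and 6.62%, 6.05% and 6.89% in Aβ0/0 mTEC, with no overlap. With coding transcripts only, 1 member (Srsf4) stood at the unadjusted threshold and 0 passed, against 14.2% and 5.45% of all genes. DESeq2 placed 2 members past the adjusted threshold and 5 at the unadjusted one, where it placed 9.12% and 17% of 26760 genes, and limma on the deposited regularised-log values (a check chosen after seeing the data) placed 0 and 4, where it placed 1.91% and 12.5% of all genes.

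Srsf4, the longest classical SR protein, stood at 51.2, 55.8 and 56.3 CPM in the 3 WT libraries and at 84.5, 84.7 and 96.3 CPM in the 3 Aβ0/0 libraries. The highest WT library lay below the lowest Aβ0/0 library. The estimate was 1.62-fold lower in WT (log2 fold change -0.70, SE 0.17, 95% interval -1.11 to -0.29, edgeR adjusted p = 0.0747). DESeq2 put it past the threshold (adjusted p = 5.69e-05), and no fit that left out 1 library did so by edgeR.

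Srsf5, also called SRp40, stood at 289, 270 and 317 CPM in WT mTEC and at 404, 442 and 503 CPM in Aβ0/0 mTEC. These libraries did not overlap either. The log2 fold change was -0.62 (SE 0.16, 95% interval -1.01 to -0.23, edgeR adjusted p = 0.0952). Without Aβ0/0 mTEC replicate 1 it passed (adjusted p = 0.0435, log2 fold change -0.69), as it did by DESeq2 (adjusted p = 0.00599). That fit without replicate 1 placed 12% of all genes past the threshold. With coding transcripts only, the Srsf5 estimate was -0.32 (edgeR adjusted p = 0.697).

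Srsf11 and Srsf10 belong to the more divergent SR proteins. Srsf11, also called SRp54, stood at 122, 161 and 156 CPM in WT mTEC and at 183, 269 and 217 CPM in Aβ0/0 mTEC, again with no overlap (log2 fold change -0.61, SE 0.21, 95% interval -1.10 to -0.11, edgeR adjusted p = 0.213). Srsf10, a repressor that is activated when it loses phosphate, stood at 75.9, 102.5 and 88.9 CPM in WT mTEC and at 99.5, 148 and 161 CPM in Aβ0/0 mTEC. Its groups overlapped, since WT replicate 2 lay above Aβ0/0 replicate 1. Its log2 fold change was -0.61 (SE 0.24, 95% interval -1.17 to -0.05, edgeR adjusted p = 0.278), and in the same fit without Aβ0/0 mTEC replicate 1 it passed (adjusted p = 0.0475, log2 fold change -0.79).

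Hnrnpdl, an AU-rich element binding protein, was the only hnRNP gene among the 5. It stood at 97.0, 126 and 120 CPM in WT mTEC and at 126, 182 and 194 CPM in Aβ0/0 mTEC, and the groups overlapped at WT replicate 2 (126.4 CPM) and Aβ0/0 replicate 1 (125.9 CPM). Its log2 fold change was -0.54 (SE 0.22, 95% interval -1.06 to -0.02, edgeR adjusted p = 0.306).

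Of the 31 estimates 26 lay below 0, and they ran from -0.70 to 0.49. Their median was -0.18 (-0.31 in SR genes and -0.16 in hnRNP genes), where the median over all genes tested was 0.00. For 20 members the 95% interval lay within a 2-fold difference in either direction. All 3 WT libraries lay below all 3 Aβ0/0 libraries in 3 members (Srsf4, Srsf5 and Srsf11), against 8.52% of all genes tested. They lay above in 0 members, against 18% of all genes. Leaving out 1 library at a time, 2 to 6 members stood at an unadjusted p under 0.05, against 10.7% to 28.1% of all genes. Without Aβ0/0 mTEC replicate 2 there were 3, against 21.1% of all genes.

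**Figure D3:**
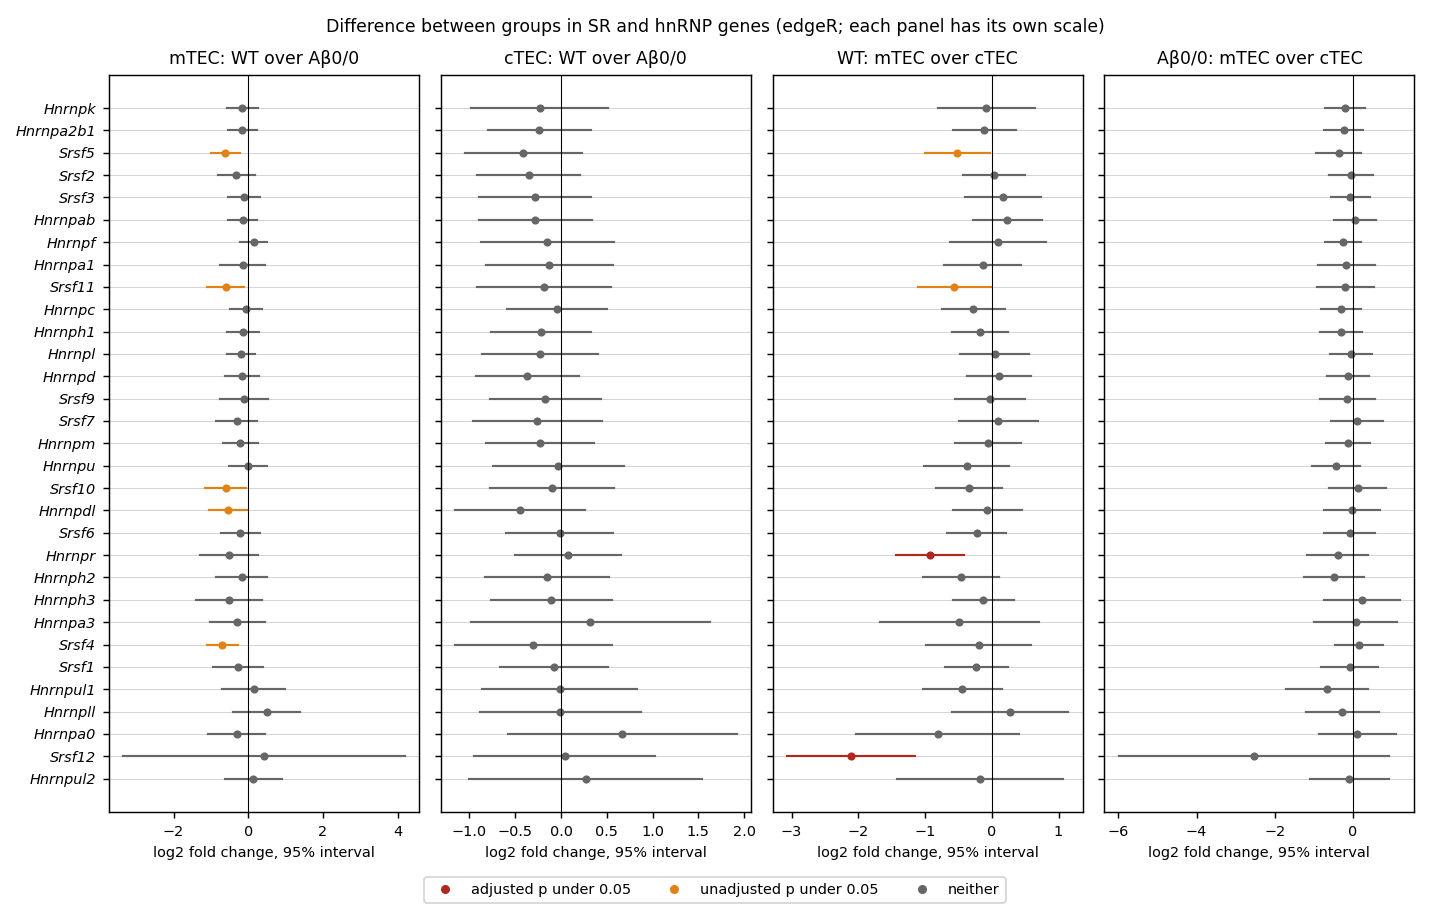
Log2 fold changes of the 31 genes, with 95% intervals from edgeR, for WT over Aβ0/0 in mTEC and in cTEC and for mTEC over cTEC in WT and in Aβ0/0 mice, each panel with its own scale, with red for an adjusted p under 0.05 and orange for an unadjusted one. In WT mTEC over WT cTEC only Srsf12 (-2.12) and Hnrnpr (-0.93) passed the adjusted threshold.

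In cTEC none of the 31 genes passed the adjusted threshold (edgeR, 15432 genes tested, of which 0.0194% passed), and 0 stood at an unadjusted p under 0.05, against 2.16% of all genes. DESeq2 and limma on the regularised-log values also gave 0 and 0, as did edgeR without each library in turn. Of all genes DESeq2 placed 0.517% and 4.04%, and limma 0.00865% and 1.98%. EdgeR without each library placed 2.12% to 7.4% at the unadjusted threshold. Srsf10 stood at 96.9, 125 and 121 CPM in WT cTEC and at 98.7, 102 and 177 CPM in Aβ0/0 cTEC, so the groups overlapped, with Aβ0/0 replicate 3 above every WT library. The largest estimate in either direction was that of Hnrnpa0, at 0.67 (95% interval -0.58 to 1.92), and in WT cTEC replicate 3 Hnrnpa0 stood at 130 CPM against 44.6 and 30.1 CPM in replicates 1 and 2. Without that library the estimate was -0.26 (95% interval -1.22 to 0.70). The lowest was that of Hnrnpdl, at -0.45 (95% interval -1.16 to 0.26). Both were named after their values were seen. Of the 31 estimates 26 lay below 0, with a median of -0.15 where all genes had 0.06, and for 24 members the 95% interval lay within a 2-fold difference. All 3 WT libraries lay below all 3 Aβ0/0 libraries in 4 members (Hnrnpa2b1, Hnrnpd, Hnrnph1 and Srsf2), against 3.58% of all genes tested, and above in 0, against 4.12%. The first of these, Hnrnpa2b1, stood at 636, 673.9 and 591 CPM in WT cTEC and at 689, 745 and 858 CPM in Aβ0/0 cTEC. For Srsf2 the libraries held 257, 214 and 199 CPM in WT cTEC and 269, 311 and 296 CPM in Aβ0/0 cTEC. In both genes the lowest of these 6 values was in WT cTEC replicate 3.

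Whether the genotype difference itself differed between mTEC and cTEC was tested over the 12 libraries. None of the 31 genes passed the adjusted threshold (edgeR, 19461 genes tested, of which 0.0103% passed) and 0 stood at an unadjusted p under 0.05, against 6.9% of all genes. DESeq2 gave 0 and 0, where it placed 1.44% and 7.51% of all genes. The difference of differences for Srsf10 was -0.47 (SE 0.40, 95% interval -1.33 to 0.39), so these libraries leave a difference of over 2-fold within the interval. The mTEC estimates of Srsf4, Srsf5, Srsf11, Srsf10 and Hnrnpdl are thus not shown to differ from those in cTEC.

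Between the subsets of WT mice, 2 of the 31 genes passed, both lower in mTEC than in cTEC (edgeR, 18667 genes tested, of which 26.8% passed, 8.81% as lower in mTEC). At an unadjusted p under 0.05 stood 4 members, all lower in mTEC, against 37.2% of all genes in either direction and 13.8% lower in mTEC. DESeq2 gave 2 and 4, where it placed 25.2% and 31.1% of all genes. Limma on the regularised-log values gave 0 and 4, where it placed 10.2% and 22.9%.

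Srsf12 fell most. It stood at 24.9, 36.5 and 13.6 CPM in WT cTEC and at 6.05, 4.99 and 5.82 CPM in WT mTEC, with every mTEC library below every cTEC library. The difference was 4.33-fold (log2 fold change -2.12, SE 0.42, 95% interval -3.07 to -1.16, edgeR adjusted p = 0.00784), and it passed without any 1 of the 6 libraries. It did not pass in the fit over all 12 libraries, nor with the regularised-log values.

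In Aβ0/0 mice Srsf12 stood at 18.5, 25.6 and 29.8 CPM in cTEC and at 9.17, 0 and 3.52 CPM in mTEC. The mTEC libraries again lay below the cTEC libraries, and the 0 was in Aβ0/0 mTEC replicate 2, one of the libraries with many zeros. The log2 fold change was -2.54 (SE 1.5, 95% interval -6.00 to 0.92, edgeR adjusted p = 0.452), an interval that holds the WT estimate. Without each library in turn it ran from -3.83 (without Aβ0/0 mTEC replicate 1, edgeR adjusted p = 0.323) to -1.97 (without replicate 2, adjusted p = 0.219).

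Hnrnpr, known for binding actin mRNA in axons, stood at 145, 201 and 159 CPM in WT cTEC and at 74.7, 83.9 and 102 CPM in WT mTEC. The groups did not overlap. The log2 fold change was -0.93 (SE 0.22, 95% interval -1.44 to -0.42, 1.90-fold lower, edgeR adjusted p = 0.0167). It no longer passed without WT mTEC replicate 1 or replicate 2, in the fit over all 12 libraries (adjusted p = 0.0585) or with the regularised-log values (limma adjusted p = 0.0946). In Aβ0/0 mice it stood at 157, 144 and 190 CPM in cTEC and at 118, 179 and 74.7 CPM in mTEC, which overlapped. With the replicate number as a block both genes passed in WT (adjusted p = 0.0296 for Srsf12 and 0.0332 for Hnrnpr).

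The other pair at an unadjusted p under 0.05 were Srsf5 (log2 fold change -0.52, SE 0.21) and Srsf11 (-0.56, SE 0.24), named after their values were seen. Srsf5 stood at 485, 430 and 364 CPM in WT cTEC and 289, 270 and 317 CPM in WT mTEC. This comparison and the genotype comparison in mTEC share the 3 WT mTEC libraries, in which both genes were low. All 3 mTEC libraries lay below all 3 cTEC libraries in 7 members, against 17.4% of all genes tested, and above in 0, against 29.5%. Besides the 4 genes just given these were Hnrnpc, Hnrnph1 and Srsf6.

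The count depended on WT cTEC replicate 3, the WT cTEC library with the highest mitochondrial share, whose part in the count was not tested. Without it 7 members passed (edgeR), as did 38.1% of 19886 genes tested. These were Srsf12, Hnrnpr, Srsf5 (adjusted p = 0.0283), Srsf4 (adjusted p = 0.0431), Hnrnpu (adjusted p = 0.0323) and Hnrnph2 (adjusted p = 0.0225), which were lower in mTEC, and Hnrnpul2 (log2 fold change 0.79, adjusted p = 0.0388), which was higher. In that library Srsf4 stood at 31.2 CPM against 83.6 and 77.5 CPM in the other WT cTEC libraries, Hnrnpu at 160 CPM against 285 and 316, and Hnrnpul2 at 60.5 CPM against 19.1 and 14.1. Each of these 3 values lay outside the range of the other 11 libraries.

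**Figure D4:**
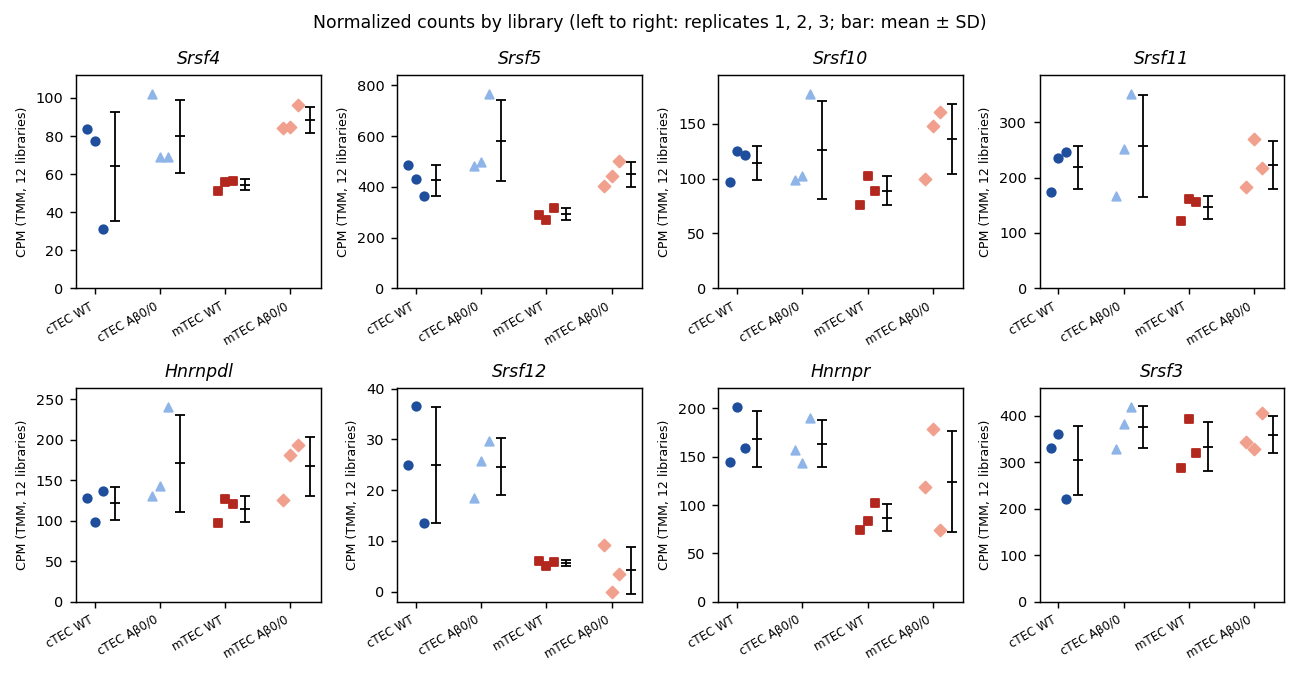
CPM in each of the 12 libraries, by group, for Srsf4, Srsf5, Srsf10, Srsf11, Hnrnpdl, Srsf12 and Hnrnpr, and for Srsf3 as a member with no difference past a threshold, with the group mean ± SD as a bar. Srsf4 and Srsf5 show no overlap between WT and Aβ0/0 mTEC, and Srsf12 lies at 0 to 9.17 CPM in mTEC and at 13.6 to 36.5 CPM in cTEC.

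In Aβ0/0 mice 0 of the 31 genes passed between mTEC and cTEC (edgeR, 15687 genes tested, of which 5.6% passed) and 0 stood at an unadjusted p under 0.05, against 17.8% of all genes. DESeq2 gave 0 and 0, where it placed 12% and 18.9% of all genes. Limma on the regularised-log values gave 0 and 1, where it placed 0.721% and 10.2%. A fit with the replicate number as a block gave 0 and 2, where it placed 4.02% and 20.3%. Of the 31 estimates 24 lay below 0, with a median of -0.13 (all genes 0.03). All 3 mTEC libraries lay below all 3 cTEC libraries in 3 members (Srsf12, Hnrnpf and Hnrnph1), against 13% of all genes tested, and above in 0, against 15%. In WT mice 23 lay below 0, with a median of -0.17 (all genes 0.06).

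Isoforms were read from the transcript levels. The unproductive share of a gene was taken as the percentage of its TPM that came from its NMD and retained-intron transcripts. It had a median of 45.5% over the 8 SR genes for which it could be tested and of 28.6% over 12 such hnRNP genes, and of 13.7% over 8145 genes of all kinds. It was over 50% in 2 of the 8 SR genes, 2 of the 12 hnRNP genes and 12.4% of the 8145 genes. Short reads place a transcript by the few bases that only it holds, transcript models of 1 gene also differ at their 3′ ends, and retained-intron models take up unspliced RNA, so a share is an estimate by Kallisto and not a count of molecules.

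Srsf3 had the highest share, with a mean of 78.8% over the 12 libraries and a range of 72.1% to 88.2%. The poison-exon transcript shown earlier, Srsf3-201, averaged 93.0 TPM, the coding transcript Srsf3-202 55.9 TPM and the retained-intron transcript Srsf3-205, whose model begins inside the poison exon, 96.6 TPM. Srsf3-201 was above Srsf3-202 in each of the 12 libraries, at 108, 109 and 41.4 TPM in WT cTEC and 89.5, 78.0 and 78.3 TPM in WT mTEC against 63.4, 71.7 and 27.7 TPM and 56.2, 74.6 and 54.2 TPM for Srsf3-202. In Aβ0/0 cTEC the pair stood at 122, 101 and 101 TPM against 59.1, 51.8 and 88.7 TPM. In Aβ0/0 mTEC it stood at 106, 76.3 and 107 TPM against 45.8, 41.4 and 36 TPM. The margin was narrowest in WT mTEC replicate 2.

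Among the SR genes Srsf6, also called SRp55, followed with a mean share of 55.1% (59.2% without WT cTEC replicate 3). Its poison-exon transcript Srsf6-201 averaged 44.3 TPM and its coding transcript Srsf6-203 34.9 TPM. The share lay between 45.5% and 69.0% in 11 libraries and was 9.74% in WT cTEC replicate 3, where Srsf6-201 stood at 2.23 TPM and Srsf6-203 at 43.4 TPM. That library thus held the lowest share by far, and its gene total for Srsf6 was 48.1 TPM, the lowest of the 12 libraries, against 95.3 and 107 TPM in WT cTEC replicates 1 and 2. On the CPM scale, which is not corrected for transcript length, the 3 totals were 153, 154 and 172 CPM.

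The next SR genes were Srsf1, the founding SR protein (49.1%), Srsf2 (48.3%), Srsf11 (42.6%) and Srsf5 (25.3%). For Srsf2 the NMD transcript Srsf2-204 averaged 128 TPM and the coding transcript Srsf2-201 132 TPM. The Srsf2 share was highest in WT cTEC replicate 3 (75.5%), the library in which the Srsf6 share was lowest, and between 36.3% and 61.9% in the other 11. The same library had the highest Srsf1 share (65.7%, against 31.8% to 62.5% elsewhere) and the lowest Srsf5 share (7.67%, against 18.3% to 38.6% elsewhere). Srsf4 (14.6%) and Srsf9 (0.985%) had the lowest shares of the 8. The Srsf4 share was 0% in WT cTEC replicate 3 and in Aβ0/0 mTEC replicate 2, and 12.3% to 22.7% in the other 10 libraries. The other poison exons with sequences shown were in weaker transcripts, Srsf11-210 at a mean of 6.88 TPM (0 to 16 TPM), with the same exon and stop also in Srsf11-206 at 8.15 TPM, and Hnrnpll-203 at 6.83 TPM (0 to 13.0 TPM), and Hnrnpl-213 averaged 12.7 TPM (3.23 to 26.7 TPM). Among the hnRNP genes Hnrnpu (62.6%) and Hnrnph3 (60.9%) were over 50%, named after their values were seen, and the Hnrnpu share was 0.220% in WT cTEC replicate 3 against 58.6% to 76.0% elsewhere (mean 68.2% without that library).

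**Figure D5:**
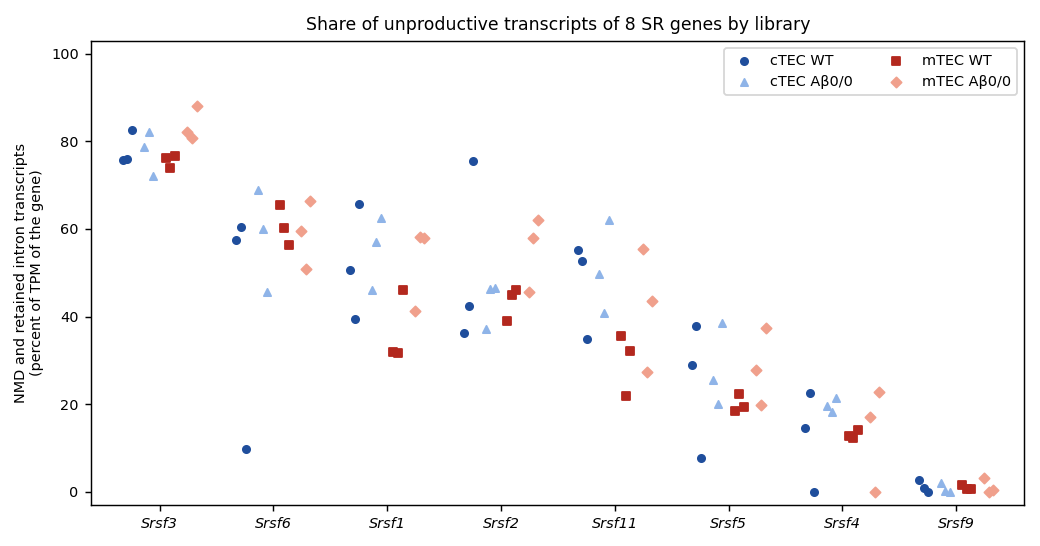
Unproductive share (NMD and retained-intron transcripts, percent of the gene's TPM) of the 8 SR genes with such transcripts, in each of the 12 libraries, coloured by group. Srsf3 stays between 72.1% and 88.2%, and WT cTEC replicate 3 lies outside the range of the other 11 libraries for Srsf6 (9.74%), Srsf2 (75.5%), Srsf1 (65.7%) and Srsf5 (7.67%) and shares the lowest Srsf4 value (0%) with Aβ0/0 mTEC replicate 2.

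Whether these shares differed between groups was tested on the log2 ratio of unproductive to coding TPM (limma, 0.1 TPM added to each). None of the 20 members passed the adjusted threshold in any of the 4 comparisons. Of all genes tested this way 0% passed for genotype in mTEC, in cTEC and between Aβ0/0 subsets, and 0.835% passed between WT subsets. At an unadjusted p under 0.05 stood 1 member for genotype in mTEC (7.72% of all genes), the same gene in cTEC (2.64%), and 0 members between subsets in WT mice (9.58%) and in Aβ0/0 mice (7.23%). No other tool was run on these ratios.

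That gene was Hnrnpa3, and it rested on 1 scarce transcript. Its retained-intron transcript Hnrnpa3-205 had 9.78, 13.9 and 21.8 estimated counts in WT cTEC and 4.69, 29.8 and 12.4 in WT mTEC. It had 0, 0 and 0 in Aβ0/0 cTEC and 0, 3.54 and 0 in Aβ0/0 mTEC. The WT libraries were all above the Aβ0/0 libraries (log2 ratio 3.16 higher in WT mTEC, limma adjusted p = 0.322, and 3.86 higher in WT cTEC, limma adjusted p = 1), and with counts this low the size of the difference depends on the added 0.1 TPM. Hnrnpa3 is also the member whose reads are hardest to place. It had 29 near-identical copies elsewhere in the annotated transcripts, whose counts averaged 41.6% of its own, against 3.85% for Hnrnpc, 1.75% for Srsf3 and at most 0.15% for each other member with a copy. In WT cTEC replicate 3 Hnrnpa3 itself had 7113 counts and its copies 294, against 2011 to 6595 and 826 to 2345 in the other libraries. The library kit does not mark strand, so reads of Hnrnpab and Phykpl, of Srsf2 and Mettl23, of Hnrnpu and Cox20 and of Hnrnpm and March2, which overlap, cannot be told apart where they share sequence.

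Genes that act on or beside these families were followed as lists. Their counts for genotype in mTEC stand beside 15.3% of all genes tested at an unadjusted p under 0.05 in either direction and 5.12% there as lower in WT. The kinases that phosphorylate SR proteins, with the phosphatase Ppp1ca, gave 0 of 10 past the adjusted threshold for genotype in mTEC (edgeR). At an unadjusted p under 0.05 stood 5 of the 10, all lower in WT (Prpf4b, Clk2, Srpk1, Clk1 and Clk4, named after their values were seen, at log2 fold changes of -0.66 to -0.84), with a list median of -0.45. Clk1 stood at 87.8, 133 and 119 CPM in WT mTEC and at 147, 193 and 266 CPM in Aβ0/0 mTEC, with no overlap. Of 26 SR-like and SR-related proteins 0 passed and 9 stood at an unadjusted p under 0.05, all lower in WT (list median -0.38). Of 30 core spliceosome genes 0 passed and 4 stood there, all lower in WT (list median -0.28), and of 15 NMD factors 0 passed and 2 stood there, both lower in WT (list median -0.28). Of 21 hnRNP relatives without the symbol 0 passed, with 2 higher and 1 lower in WT at an unadjusted p under 0.05 (list median -0.05).

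Of 26 tissue-restricted and epithelial splicing regulators 1 passed for genotype in mTEC, and at an unadjusted p under 0.05 stood 1 higher and 5 lower in WT (list median -0.16). The 5 were Mbnl1, Qk, Tia1, Rbm24 and Tial1, named after their values were seen, at log2 fold changes of -0.53 to -1.09. The gene that passed was Rbfox3, the neuronal splicing factor known as NeuN, at 9.18, 6.09 and 6.03 CPM in WT and 0.0395, 0.0349 and 0.303 CPM in Aβ0/0 mTEC (edgeR adjusted p = 0.0441). The call held in 5 of 14 fits, and was lost with the replicate block (adjusted p = 0.230), with all 12 libraries (adjusted p = 0.144) and without any 1 WT mTEC library (adjusted p = 0.142 to 0.170). It was close to 0 in all 6 cTEC libraries too (0 to 0.982 CPM). In cTEC no gene of the 6 lists passed for genotype (edgeR), and 2 stood at an unadjusted p under 0.05, both of them hnRNP relatives lower in WT.

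Between WT subsets these lists held genes past the threshold in both directions, where 26.8% of all genes tested passed, 8.81% as lower in mTEC. Of the tissue-restricted regulators 5 passed as higher and 4 as lower in mTEC (edgeR). Rbfox3 and Celf6 (2.51, 2.39 and 2.08 CPM in mTEC) were at 0 to 0.0312 CPM in WT cTEC. Rbm24, a muscle splicing factor, rose from 0.838, 2.22 and 0.842 CPM to 19.1, 19.2 and 16.3 CPM (log2 fold change 3.83, SE 0.55, adjusted p = 0.00264), and Rbm38 also rose (2.36, adjusted p = 0.0126). Mbnl1, the muscleblind protein, fell by 1.03 on the log2 scale (adjusted p = 0.00754). Of the SR kinases Srpk1 was higher in mTEC, at 83.4, 102 and 95.4 CPM against 42.8, 52.5 and 52.3 CPM (log2 fold change 0.95, adjusted p = 0.0108), and Srpk2 was lower (-1.07, adjusted p = 0.0303). Msi1 (2.43) and Pcbp4 (0.73) passed among the hnRNP relatives, Srrm4 among the SR-related proteins (0.404 to 1.59 CPM in mTEC, 0 to 0.126 CPM in cTEC) and Prpf8 in the core spliceosome (-0.82). In Aβ0/0 mice, where 5.6% of all genes passed, 2 genes of the lists did, Srpk1 higher in mTEC (118, 158 and 171 CPM against 51.6, 64.1 and 42.5 CPM) and Rbm20 lower (6.92, 10.0 and 16.4 CPM against 28.9, 52.3 and 84.0 CPM). No NMD factor passed in any of these comparisons.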

How the data were processed

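Poly-A RNA was made into libraries by SMART-Seq v4 for low input, a PCR-amplified and unstranded method, and read as short pairs on an Illumina HiSeq. The authors estimated transcript abundance with Kallisto (0.43 in the submitters' processing notes, which also list bcl2fastq 2.20.0, Trim Galore, DESeq2 and build mm10). They deposited, for each library, estimated counts and TPM per transcript, and a table of regularised-log values on a log2 scale, used only as an alternative.

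Transcripts were joined to GENCODE M21, which matched 107987 of 109282 (the other 1295 held 0.45% to 0.512% of counts and were left out of the fits), and estimated counts were summed per gene and rounded. Genes were kept by edgeR's filterByExpr, scaled by TMM and tested by edgeR 4.0.16 (quasi-likelihood, robust) on the 6 libraries of a comparison, or all 12 for the difference of differences. CPM of genes were scaled by TMM over the 12 libraries, and marker sums by library total. Isoform ratios used limma 3.58.1 (trend, robust) on log2 TPM ratios with 0.1 TPM added, for genes with a mean of at least 50 counts. Adjustment was by Benjamini-Hochberg over all genes tested, at 0.05, and DESeq2 1.42.0 was an alternative. Copies were found with BLAST 2.17.0 (at least 95% identity over 300 bases). The fits were also run on simulated data. The planted changes there were far larger than most member differences, so that check says nothing about small ones. Poly-A counts from PCR-amplified libraries are not independent molecules. Depth ran from 21710319 to 36139815 estimated counts a library.

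The members and lists were chosen with earlier results of these data known, so counts over them are descriptions. Named genes were, for genotype and the difference of differences, members past the adjusted threshold or at an unadjusted p under 0.05 (at most 10); for subsets, at most 10 past the adjusted threshold; the 5 highest and 5 lowest in TPM; the 6 SR genes with the largest unproductive share; Srsf10 and H2-Ab1; and list genes past the adjusted threshold (at most 5 a list). The labels give only a replicate number, and the study's supplement lists the cells sorted under each number for both subsets and both genotypes. The number was therefore read as a shared sort, and a replicate block was an alternative in every comparison. Under each number the supplement lists fewer cTEC and fewer mTEC from Aβ0/0 than from WT mice, and fewer cTEC than mTEC. Cell number thus moved with genotype and subset, and its part in the results was not tested. Deviations of same-numbered libraries from their group means correlated at 0.219, 0.038 and 0.080 between WT subsets, at 0.239, 0.091 and 0.055 between Aβ0/0 subsets, at 0.234, 0.081 and 0.053 between genotypes in mTEC and at 0.244, -0.039 and 0.057 in cTEC.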

Additional observations from a re-analysis of the deposited data

How the results depend on the processing

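With 3 pools a group, and with scarce transcripts at 0 in WT cTEC replicate 3 and Aβ0/0 mTEC replicate 2, a p that misses the threshold does not show that levels were equal. The regularised-log fit and the addition of near-identical copies were chosen after seeing the data. For genotype in mTEC, DESeq2 put 2 members past the adjusted threshold (9.12% of all genes). The members at an unadjusted p under 0.05 numbered 1 with all 12 libraries in the fit (13% of all genes) and 1 with coding transcripts only (14.2%). Without each library in turn 0 to 2 passed (0% to 12% of all genes) and 2 to 6 stood at the unadjusted threshold (10.7% to 28.1%). In WT subsets 0 passed with all 12 libraries (2 unadjusted), where 14.2% of all genes passed (27.7% unadjusted). With the regularised-log values 0 passed, against 10.2% of all genes. Without each library in turn 1 to 7 passed (2 to 7 unadjusted), against 17.7% to 38.1% of all genes (29.7% to 48.2% unadjusted). In Aβ0/0 subsets the unadjusted count was 1 with all 12 libraries, 2 with the replicate block, 1 with the regularised-log values and 0 to 2 without each library. The shares of all genes in those fits were 25.9%, 20.3%, 10.2% and 15.2% to 18.4%. For the difference of differences the unadjusted count was 0 to 1, against 4.85% to 10.8% of all genes. The cause of these moves was not tested.

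The member median fold change ran from -0.28 to -0.094 in cTEC and from -0.28 to -0.11 between Aβ0/0 subsets without each library in turn. The member median change of the unproductive ratio was 0.19 with NMD transcripts alone and -0.60 with retained introns alone for genotype in mTEC, -0.077 and 0.27 in cTEC, and -0.039 and 0.43 between Aβ0/0 subsets, and 0.42 with NMD transcripts alone between WT subsets. Over all genes tested the medians were -0.046 and -0.13 in mTEC, 0.023 and 0.074 in cTEC, and 0.089 and 0.33 between Aβ0/0 subsets. Between WT subsets the all-gene median with NMD transcripts alone was 0.082. With both kinds the all-gene medians were -0.14 in mTEC, 0.064 in cTEC, 0.077 between WT subsets and 0.28 between Aβ0/0 subsets. Without each library the member median with both kinds ran from -0.46 to -0.14 in mTEC, from -0.0004 to 0.29 in cTEC, from -0.37 to -0.12 between WT subsets and from 0.16 to 0.33 between Aβ0/0 subsets. The sign of the member median thus depends on which transcripts are counted as unproductive. Without each library in turn the Srsf10 estimate in cTEC ran from -0.25 to 0.21, turning to 0.0049 without WT cTEC replicate 1 and to 0.21 without Aβ0/0 cTEC replicate 3, and the Srsf12 difference of differences ran from -0.14 (without Aβ0/0 mTEC replicate 2) to 1.68, none of them past a threshold. Of the other values, 247 of those that answer a comparison and 208 of those of single genes kept their direction and their side of the threshold, or moved by less than the spread.

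Over all genes, DESeq2 called 1898 higher and 542 lower in WT mTEC where edgeR called 991 and 63, 90 and 31 in cTEC where edgeR called 0 and 3, 1676 and 1084 between Aβ0/0 subsets where edgeR called 541 and 337, and 266 and 132 for the difference of differences where edgeR called 1 and 1. DESeq2 also tested more genes, and the median over all of them in mTEC was 0.20, against 0.00. Without the filter on low counts edgeR called 18 and 9 in mTEC, and with all 12 libraries 10 and 10. A replicate block between genotypes left 0 of all genes past the threshold in mTEC and in cTEC and 0 members. At the unadjusted threshold it left 5 and 0 members, against 15.7% and 1.68% of all genes. In mTEC 5 of 6 libraries and in cTEC 3 of 6 correlated best with their own number. Between subsets the block gave 3820 calls over all genes in WT mice (4997 without it) and 630 in Aβ0/0 mice (878 without it), changed no adjusted call on a member, and 4 of 6 WT and 6 of 6 Aβ0/0 libraries correlated best with their own number.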
